A study of Mus musculus with 8 samples.

Results

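Nuclei carrying microglial transcripts were picked out of a sort of adult mouse midbrain nuclei and chosen by the measured UMIs of 9 marker genes. A nucleus was a member when it had UMIs (unique molecular identifiers, each standing for 1 captured RNA molecule) of at least 3 of Inpp5d, Siglech, Apbb1ip, Ly86, Runx1, Csf3r, Ikzf1, Csf1r and Cx3cr1, and when these genes together made up at least 2 of every 10000 UMIs of that nucleus. The rule found 112 members among 5740 nuclei. Of these, 74 were among the 3968 nuclei of the PRC2 mutant library and 38 among the 1772 nuclei of the wt library. Because the 9 genes chose the members, their levels are given below as a description only.

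The study asked what dopamine neurons transcribe with and without working Polycomb repressive complex 2 (PRC2), the enzyme complex that places a repressive methyl mark on histone H3. The labels give the strain as DatCreEed and the cell type as mDA (midbrain dopamine neurons) for both groups, and the genotype as PRC2 mutant or wt. The strain name joins Cre recombinase under the dopamine transporter (Dat) gene, a driver known to act in dopamine neurons, with Eed, a core PRC2 subunit. The labels do not say whether the wt mice carried Cre or an altered Eed allele. Each library pooled nuclei of 3 mice aged 8 months, 2 female and 1 male, so there was 1 library per genotype, read on 4 flow cell lanes that are not kept apart in the deposited table. Genotype, batch and mice therefore cannot be told apart, a genotype difference could not be tested, and all intervals are 95% intervals for counting error only.

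Microglia are the resident macrophages of the brain. They depend on signalling through the Csf1r receptor tyrosine kinase, survey the tissue with processes that are guided by the purine receptor P2ry12 and the chemokine receptor Cx3cr1, and clear cell debris through receptors such as Mertk. Their genes are under the myeloid transcription factors Spi1 (PU.1) and Runx1, and in the midbrain they sit among the dopamine neurons of the substantia nigra.

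The promoters of the genes that led the members outside the rule are shown first. These genes ranked highest over other nuclei by log2 difference with 10 CPM added, which places abundant genes above scarcer ones of larger fold. The ranking took the library with the smaller difference. Sequences are those of RefSeq on GRCm38.p6, from 250 bases before to 50 bases after the annotated start. GGAAGT, the core letters bound by ETS-family factors, and GAGGAAGT, the longer form preferred by Spi1, were searched on both strands. Any GAGGAAGT also counts as a GGAAGT, and matches are in capitals.

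Mertk, chr2:128698665-128698964, plus strand: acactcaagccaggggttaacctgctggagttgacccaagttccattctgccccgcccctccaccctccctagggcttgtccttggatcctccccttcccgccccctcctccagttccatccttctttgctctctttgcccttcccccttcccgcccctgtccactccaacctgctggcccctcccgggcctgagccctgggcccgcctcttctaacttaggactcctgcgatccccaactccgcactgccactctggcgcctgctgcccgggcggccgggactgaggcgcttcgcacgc
Dock8, chr19:24999279-24999578, plus strand: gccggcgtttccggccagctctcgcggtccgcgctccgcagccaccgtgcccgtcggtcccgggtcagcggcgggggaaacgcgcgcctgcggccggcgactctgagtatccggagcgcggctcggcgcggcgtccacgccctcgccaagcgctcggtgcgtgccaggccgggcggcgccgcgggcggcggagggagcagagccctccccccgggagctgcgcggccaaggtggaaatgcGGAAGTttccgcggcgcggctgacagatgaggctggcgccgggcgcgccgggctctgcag
Fyb, chr15:6579597-6579896, plus strand: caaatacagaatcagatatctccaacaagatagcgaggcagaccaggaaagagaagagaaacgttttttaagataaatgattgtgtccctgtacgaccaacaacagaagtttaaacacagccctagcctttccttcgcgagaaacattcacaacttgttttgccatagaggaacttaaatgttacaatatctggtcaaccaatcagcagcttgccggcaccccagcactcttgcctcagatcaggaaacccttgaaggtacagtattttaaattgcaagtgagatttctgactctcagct
Slco2b1, chr7:99711291-99711590, minus strand: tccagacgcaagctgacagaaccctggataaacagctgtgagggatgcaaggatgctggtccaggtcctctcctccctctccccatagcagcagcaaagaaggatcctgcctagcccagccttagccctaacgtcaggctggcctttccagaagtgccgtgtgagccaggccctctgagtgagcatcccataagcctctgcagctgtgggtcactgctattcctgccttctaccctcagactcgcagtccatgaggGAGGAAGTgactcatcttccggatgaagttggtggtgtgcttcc
Dock2, chr11:34783856-34784155, minus strand: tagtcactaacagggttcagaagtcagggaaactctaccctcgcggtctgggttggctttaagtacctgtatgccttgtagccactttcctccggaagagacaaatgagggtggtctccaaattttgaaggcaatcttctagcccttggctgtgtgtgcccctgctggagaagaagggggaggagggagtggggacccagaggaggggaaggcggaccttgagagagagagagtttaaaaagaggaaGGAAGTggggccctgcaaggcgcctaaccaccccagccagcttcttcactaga

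Mertk is a receptor tyrosine kinase for the uptake of dying cells, Dock8 and Dock2 are exchange factors for small GTPases of white blood cells, Fyb is an adaptor of immune receptors, and Slco2b1 is an organic anion transporter. GAGGAAGT was present in the printed Slco2b1 promoter and GGAAGT in those of Dock8 and Dock2, while the Mertk and Fyb windows held neither. Of all 32851 RefSeq mouse promoters of this length, 3.20% held GAGGAAGT and 23.8% held GGAAGT. Among the 24 promoters of the 17 leading genes with an entry, out of 20, the shares were 12.5% and 37.5%. Among the 32 promoters of 23 genes of immune kinases and adaptors they were 15.6% and 56.2%. Homeostatic microglial genes had 7.14% and 35.7% (14 promoters of 11 genes), and the rule markers 20% and 30% (10 promoters of 8 genes). Among the 16 promoters of 12 dopamine neuron genes they were 6.25% and 12.5%. From the leading genes on, the GAGGAAGT shares rest on only 3, 5, 1, 2 and 1 promoters. A match describes letters in a window and says nothing about binding.

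Members made up 1.86% of the mutant library (exact binomial interval 1.47 to 2.34%) and 2.14% of the wt library (1.52 to 2.93%). The ratio of the shares, mutant over wt, was 0.870 (0.580 to 1.32), so no difference was detectable at these numbers. Shares are set in part by the sort for dopamine neuron nuclei, whose gate the sources used here do not give. Just inside the limit of the rule lay a wt nucleus with 2.08 marker UMIs per 10000 and mutant nuclei with 2.13 and 2.17. Just outside lay mutant nuclei with 1.88 and 1.85, and a wt nucleus with 1.52. Another 14 nuclei had enough markers but too low a sum, and 34 had a sufficient sum but fewer than 3 markers. The libraries shared 4 cell barcodes, none of them a member's.

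The members fell into 2 kinds, and for most of them the label of microglia nuclei went against their RNA. The summed level of 13 pan-neuronal genes, such as Snap25 of the synaptic release machinery and the RNA-binding Rbfox3, left a gap between 51.1 UMIs per 10000, the highest of the members with little neuronal RNA, and 96.2 per 10000, the lowest of the others. A limit of 60 per 10000, set after this gap had been seen, split the members into 34 neuron-poor and 78 neuron-rich nuclei. The median was 16.4 per 10000 in mutant and 13.3 per 10000 in wt neuron-poor members. Neuron-rich members had medians of 189 and 186 per 10000 in the mutant and wt library, close to the medians of 205 and 212 per 10000 of all other nuclei. Only neuron-poor members could match the label in carrying marker RNA with little neuronal RNA, which the split itself sets. Not all of them did, since a mutant nucleus carried T cell genes and others carried RNA of other glia or vessels, as given below. Neuron-poor members were 22 of 74 mutant members (29.7%, 19.7 to 41.5%) and 12 of 38 wt members (31.6%, 17.5 to 48.7%).

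**Figure D1:**
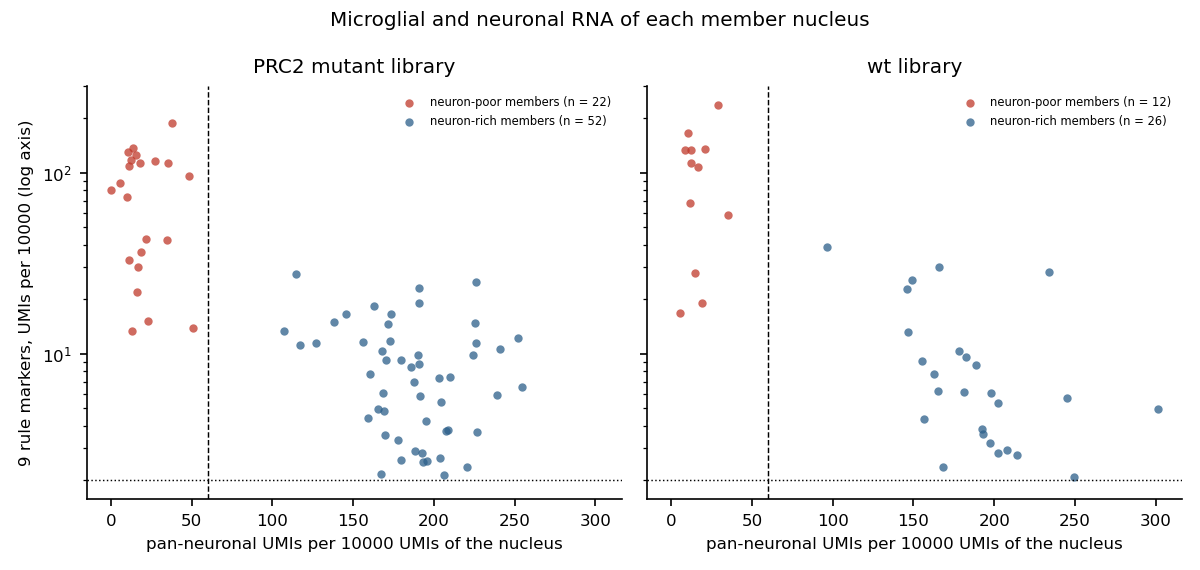
Each point is 1 member nucleus of the PRC2 mutant library (left) or wt library (right), placed by pan-neuronal UMIs per 10000 UMIs and by UMIs of the 9 rule markers per 10000 on a log axis. The dashed line is the limit of 60 that separates 22 and 12 neuron-poor members from 52 and 26 neuron-rich members in the mutant and wt library, and the dotted line is the rule's limit of 2.

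Total depth followed the same division. Neuron-poor members had a median of 2982.5 UMIs (796 to 16905) in the mutant and 1848 UMIs (859 to 10360) in the wt library. Neuron-rich members had medians of 31224.5 UMIs (4561 to 85776) and 32683.5 UMIs (3847 to 88268). The other nuclei had medians of 17822.5 and 21560 UMIs. None of the 22 mutant and 12 wt neuron-poor members reached the median of the other nuclei of its library, whereas 40 of 52 mutant and 18 of 26 wt neuron-rich members exceeded it. The 74 mutant members held 1983399 UMIs in all and the 38 wt members 1111787 UMIs. Of these, neuron-poor members held 102686 and 35481 UMIs, so 3 UMIs stood for 29.2 and 84.6 CPM there (UMIs scaled to the summed total of a group and library), and levels below these limits cannot be told from none. Median mitochondrial shares were 0.179% and 0.424% in mutant and wt neuron-poor members, 0.141% and 0.196% in neuron-rich members, and 0.125% and 0.164% in other nuclei.

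Marker UMIs are given as a description, since the rule used them and its limit of 2 per 10000 asks for more of them in deeper nuclei. Neuron-poor members carried a median of 22 marker UMIs (8 to 49) in the mutant and 21 (3 to 109) in the wt library. Neuron-rich members carried a median of 21.5 (4 to 63) and 23 (8 to 49). Homeostatic microglial genes, none of them in the rule, had medians of 28.5 UMIs (1 to 56) in mutant and 16 UMIs (3 to 120) in wt neuron-poor members, and of 24 (0 to 74) and 21.5 (2 to 66) in neuron-rich members, so the ranges of both kinds overlapped. Their medians were 1 UMI in other nuclei of each library. Other nuclei carried a mean of 0.157 and 0.250 marker UMIs, and 3477 of 3894 mutant and 1450 of 1734 wt nuclei among them had none. All 9 markers were detected in 6 mutant and 5 wt neuron-poor members, and in 15 and 9 neuron-rich ones. The values do not say whether a nucleus with both kinds of RNA held 1 nucleus or more; no doublet caller was run, and this was not tested.

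**Figure D2:**
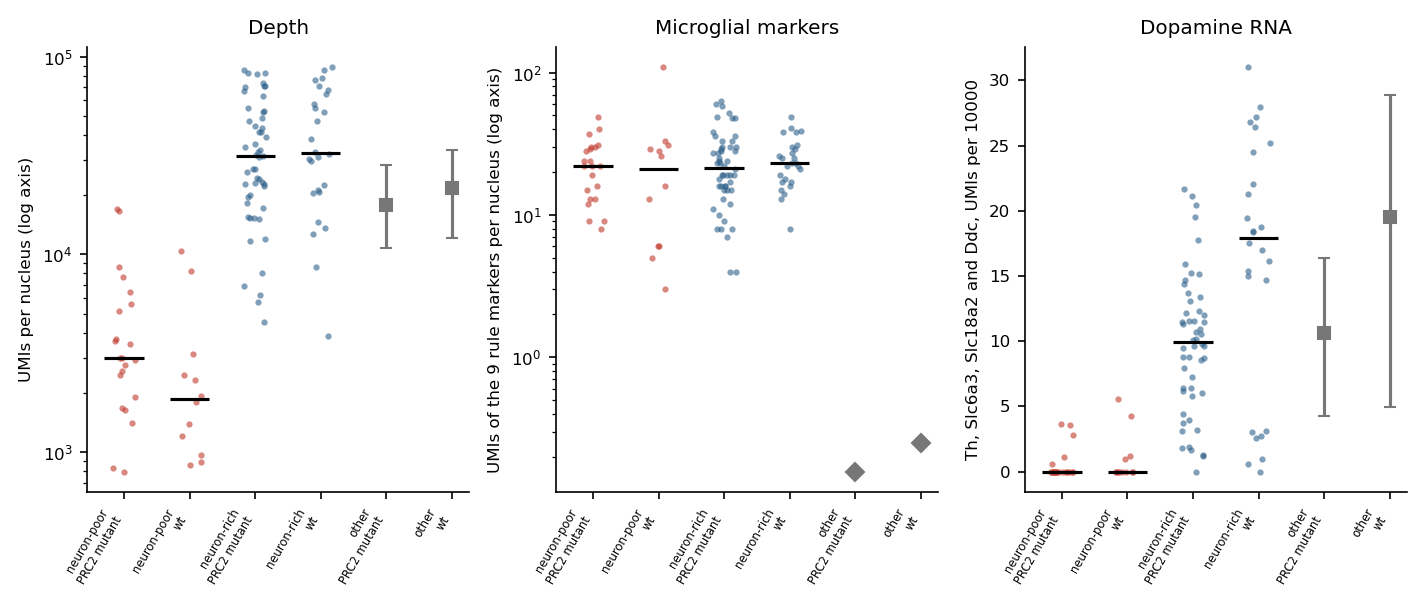
Each point is 1 member, with the PRC2 mutant library left of wt in each pair; black bars are medians of UMIs per nucleus, marker UMIs per nucleus (both log axes) and UMIs of Th, Slc6a3, Slc18a2 and Ddc per 10000. Grey squares with bars give the median and quartiles of other nuclei, and grey diamonds their mean of 0.157 and 0.250 marker UMIs; depth and dopamine RNA divide the members, while marker UMIs, which the rule used, overlap.

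The 9 marker genes were each present in most members. Inpp5d, a phosphatase of phosphoinositides that restrains immune receptor signalling, was the most abundant, with 347 UMIs in 71 of 74 mutant members and 177 UMIs in 35 of 38 wt members. In other nuclei it had 37 and 36 UMIs. Siglech, a sialic acid binding lectin, had 218 UMIs in 62 mutant members and 106 UMIs in 32 wt members, against 11 UMIs and 1 UMI in other nuclei. Apbb1ip, an adaptor for integrin activation, had 254 and 132 UMIs, and Ly86, a partner of a Toll-like receptor relative, had 172 and 100. In other nuclei Apbb1ip had 116 and 115 UMIs, and Ly86 had 20 and 35 UMIs.

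Among the transcription factors of the rule, Runx1 had 166 UMIs in mutant and 117 UMIs in wt members, and Ikzf1, a zinc finger factor of blood cells, had 177 and 92 UMIs. The cytokine receptor Csf3r had 141 and 86 UMIs and Csf1r had 158 and 69 UMIs. Cx3cr1 had 147 and 72 UMIs in members and was the marker most often seen elsewhere, with 235 UMIs in mutant and 187 UMIs in wt other nuclei. It made up 38.5% and 43.1% of marker UMIs in other nuclei, against 6.77% and 7.54% in neuron-poor and 8.84% and 7.59% in neuron-rich members. Inpp5d made up 19.9% and 17.7% of marker UMIs in mutant and wt neuron-poor members and 19.3% and 19.0% in neuron-rich members, against 6.06% and 8.29% in other nuclei. Runx1 made up 9.16% and 17.4% in neuron-poor and 9.39% and 9.91% in neuron-rich members, against 11.6% and 3.23% in other nuclei, so the order differed between markers and libraries. In wt neuron-poor members 22 of the 53 Runx1 UMIs lay in a single nucleus. Cx3cr1 overlaps Wdr48 on the opposite strand, a gene with 3687 and 1877 UMIs in other nuclei, and the sources used here do not say whether the counting used strand.

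That markers are rare outside the members follows from the rule, and 1 marker is given at equal depth as a description. After each nucleus had been thinned to 2000 UMIs, which left out 6 mutant and 7 wt neuron-poor members that were shallower, Inpp5d had a UMI in 14 of 16 mutant and 4 of 5 wt neuron-poor members. Without thinning it had a UMI in all 22 and in 10 of 12. At 2000 UMIs it was found in 15 of 52 mutant and 10 of 26 wt neuron-rich members, and in 3 of 3800 and 4 of 1665 other nuclei. Neuron-poor nuclei rich in astrocyte genes, a cell type that should lack it, had Inpp5d in 0 of 31 mutant and 0 of 33 wt nuclei at that depth, which allows shares of up to 9.68% and 9.09%. Members were left out of this set, which by itself keeps its marker UMIs low. Those astrocyte-rich nuclei averaged 0.0222 and 0.0476 marker UMIs at a mean depth of 3082 and 3965 UMIs, in the range of the 4668 and 2957 UMIs that neuron-poor members averaged.

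Beyond the 9 markers, 36 of 10826 genes (0.333%) were higher in members than in other nuclei by 4-fold or more in each library, on a log2 scale with 10 CPM added, and 0 (0%) were lower. Among the 20 highest were Mertk, Dock8, Fyb, Slco2b1, Dock2, Tgfbr1, Arhgap45, P2ry12, Lyn, Slc1a3, Selplg, Itgb5, Agmo, Lair1, Cd84, Hpgds, Gm26740, Myo1f and Adap2. With 1 library per genotype there was no test, and the count rests on size alone. All 36 were also among the 262 genes higher in neuron-poor members alone (100% of the 36 and 13.7% of the 262). Neuron-poor nuclei are part of the members and were set against the same other nuclei, so this overlap is no independent check.

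Mertk led with 182.5 CPM in mutant and 182.6 CPM in wt members, against 6.03 and 7.90 CPM in other nuclei. That was 30.3-fold and 23.1-fold. Its UMIs were found in 65 of 74 mutant and 35 of 38 wt members. Mertk is also known from astrocytes, and at 2000 UMIs it was detected in 17 of 31 mutant and 17 of 33 wt astrocyte-rich nuclei, so it does not set microglial RNA apart by itself. Dock8 had 111 CPM in mutant and 119 CPM in wt members, against 2.61 and 5.13 CPM in other nuclei. Fyb had 106 and 84.6 CPM in members, against 1.86 and 1.89 CPM. Slco2b1 had 82.2 and 70.2 CPM in members, against 0.476 and 0.396 CPM, a difference of 173-fold and 177-fold. All 4 were higher in members than in other nuclei in each library.

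Several of these genes encode receptors and surface proteins. Tgfbr1, a receptor kinase for the TGF-beta signal that microglia need to keep their identity, had the most UMIs, 506 in mutant and 257 in wt members, or 255 and 231 CPM against 29.5 and 17.5 CPM in other nuclei. P2ry12 had 92.8 and 86.4 CPM in members, against 3.67 and 5.02 CPM. It lies across Med12l on the opposite strand, a gene with 32006 and 17404 UMIs in other nuclei. Selplg, a ligand of selectins, had 137 UMIs in 56 mutant members and 58 UMIs in 24 wt members, against 37 and 14 UMIs in all other nuclei. The integrin subunit Itgb5 and the inhibitory collagen receptor Lair1 were 12.9-fold and 16.5-fold higher in mutant members and 15.4-fold and 13.1-fold higher in wt members. Cd84, an adhesion receptor of the SLAM family, was 237.8-fold and 172-fold higher, from 93 and 59 UMIs.

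Further leading genes act inside the cell. Lyn, a Src-family kinase below immune receptors, had 143 and 112 CPM in mutant and wt members, against 9.40 and 9.46 CPM in other nuclei. The GTPase activator Arhgap45, the ether lipid enzyme Agmo, the prostaglandin D synthase Hpgds, the motor Myo1f, Adap2 and the noncoding Gm26740 followed, with 102 to 199 UMIs each in mutant members and 53 to 109 UMIs in wt members. Slc1a3, a glutamate transporter known best from astrocytes, had 263 UMIs in 49 mutant members and 190 UMIs in 27 wt members. It was also high in members with little RNA of other cell types by a limit that left Slc1a3 out, with 58 UMIs in 4 of 13 mutant and 48 UMIs in 6 of 10 wt nuclei.

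These genes were carried in like numbers by both kinds of member when counted per nucleus. Mertk averaged 5.82 UMIs per nucleus in mutant and 6.17 in wt neuron-poor members, and 4.50 and 4.96 in neuron-rich members, against 0.134 and 0.207 in other nuclei. Tgfbr1 averaged 6.09 and 7 in neuron-poor members and 7.15 and 6.65 in neuron-rich ones, against 0.654 and 0.460. Slco2b1 averaged 2.32 and 1.92 in neuron-poor and 2.15 and 2.12 in neuron-rich members, against 0.0105 and 0.0104. Because neuron-rich members held far more UMIs in all, the same numbers gave lower CPM there, as for Mertk with 1247 and 2086 CPM in neuron-poor and 124 and 120 CPM in neuron-rich members.

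**Figure D3:**
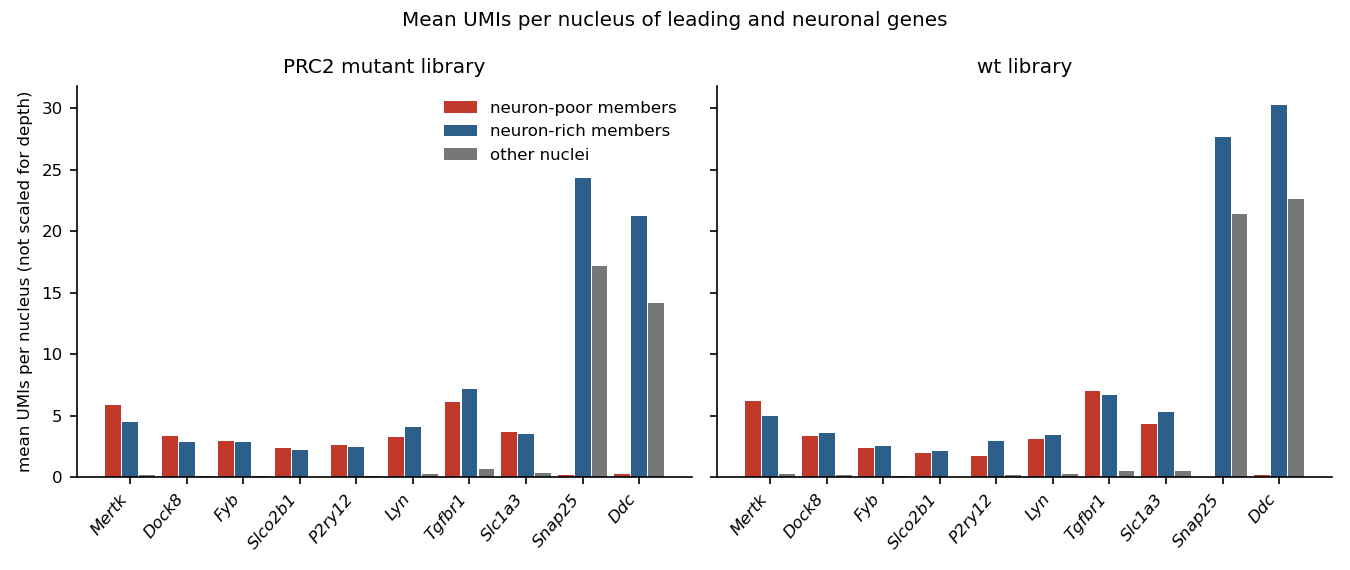
Bars give mean UMIs per nucleus, not scaled for depth, of 8 leading genes and of the neuronal Snap25 and Ddc in neuron-poor members, neuron-rich members and other nuclei of the PRC2 mutant library (left) and wt library (right). Mertk stands at 5.82 and 4.50 UMIs in the mutant members of the 2 kinds and at 6.17 and 4.96 in the wt ones, while Snap25 and Ddc are near 0 in neuron-poor members.

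The neuron-poor members showed the microglial profile more fully than the neuron-rich ones, together with RNA of other cell types. Against other nuclei, 262 of 2218 genes (11.8%) were higher by the 4-fold rule in both libraries and 283 (12.8%) were lower. The 262 included genes of other glia and of vessels, given below. The median of all tested genes stood at 0.40 and 0.34 (log2) in the mutant and wt library, so differences are relative to that shift. A gene entered these counts with at least 20 UMIs in neuron-poor members, or with 20 expected there at its level in other nuclei. Genes scarce in other nuclei thus entered only where they were high in members, and the lists are therefore also given over all their genes. Of 15 homeostatic microglial genes in the table, 9 entered and were counted as higher, Gpr34, Sall1, Sparc and Cst3 among them. Over all 15, CPM was above that of other nuclei in both libraries for 14 and below it for 0, and the median log2 difference was 3.98 and 4.32 in the mutant and wt library. The summed list was 67.2-fold and 101-fold higher. Gpr34, a receptor for lysophospholipids, had 18 UMIs in mutant and 7 UMIs in wt neuron-poor members, or 175 and 197 CPM, against 0.290 and 0.352 CPM in other nuclei. Sall1, a repressor that is confined among brain macrophages largely to microglia, had 15 and 9 UMIs there, or 146 and 254 CPM, against 1.89 and 2.36 CPM in other nuclei.

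Signalling genes followed the same course. Of 29 immune kinases and adaptors, 27 had CPM above that of other nuclei in both libraries and 1 below it, with a median log2 difference of 4.10 and 4.69. Of the 23 that entered the count, 21 were higher and 1 was lower in neuron-poor members. Among those higher were Btk, Vav1, Blnk, Lcp2 and Pik3ap1, which relay immune receptor signals, and Elmo1, a partner of Dock proteins in engulfment, with 2707 and 3128 CPM against 222 and 179 CPM in other nuclei. Rasgef1b was the one lower, with 1 UMI in mutant and 2 UMIs in wt neuron-poor members. Of 13 myeloid transcription factors, 11 lay above other nuclei in both libraries and 1 below, and 6 of the 7 that entered the count were higher (Maf, Mef2c, Mef2a, Fli1, Etv6 and Elf1), and Mef2c stood at 925 and 1184 CPM, against 27.1 and 20.3 CPM. Spi1 itself had 36 UMIs in 27 mutant and 20 UMIs in 13 wt members, against 2 and 3 UMIs in all other nuclei, too few in neuron-poor members to enter the count. Of 19 complement and phagocytosis genes, 13 had CPM above that of other nuclei in both libraries and 3 below it, with a median log2 difference of 2.67 and 2.71. Those that entered the count and were higher were C1qb, the phagocytosis checkpoint receptor Sirpa, and Cd33.

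Lists of activated states gave fewer molecules, though their sums were above those of other nuclei. The 20 genes of disease-associated microglia had 66 UMIs in mutant and 30 UMIs in wt neuron-poor members, 3.84-fold (2.97 to 4.89) and 4.34-fold (2.93 to 6.20) the level of other nuclei. Of these genes 9 lay above other nuclei in both libraries and 5 below, and the 1 that entered the count was neither higher nor lower. Spp1, Gpnmb, Lpl, Itgax and Lgals3 had 0 UMIs in neuron-poor members of both libraries. The 16 interferon response genes had 20 and 14 UMIs, 3.34-fold (2.04 to 5.17) and 6.23-fold (3.40 to 10.5) the level of other nuclei, and none entered the count. The 9 inflammatory cytokine genes had 36 and 3 UMIs, 26.5-fold (18.5 to 37.0) and 5.81-fold (1.20 to 17.1). Among them Il18, a cytokine released by inflammasomes, had 19 and 1 UMIs and was not counted as higher in both libraries. Astrocyte-rich nuclei with little neuronal RNA carried these lists too. They had 872 and 456 CPM of the disease-associated list, against 643 and 846 CPM in neuron-poor members. For interferon genes the values were 159 and 180 CPM against 195 and 395 CPM, and for cytokines 202 and 168 CPM against 351 and 84.6 CPM. Of 12 border macrophage genes, 2 lay above other nuclei in both libraries and 6 below, and 8 had no UMI in neuron-poor members. Mrc1, Cd163, Lyve1, F13a1 and Ms4a7 had 0 UMIs in all 34 neuron-poor members, which allows up to 29.2 CPM in mutant and 84.6 CPM in wt nuclei. Cd74, which presents antigen with class II molecules, had 1 and 7 UMIs. Stab1, a scavenger receptor on that list that microglia also express, was higher, with 18 and 7 UMIs, or 175 and 197 CPM against 0.128 and 0.308 CPM.

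The low level of pan-neuronal genes in neuron-poor members was set by the split. Of 14 dopamine neuron genes, 13 lay below other nuclei in both libraries and 1 above, and Slc6a3, Slc18a2, Ddc and Ret were counted as lower. The split did not use these genes, but they too mark neurons, so their low level is no independent result. Among the pan-neuronal genes, Syt1, the calcium sensor of synaptic vesicles, had 3 UMIs in mutant and 3 UMIs in wt neuron-poor members, or 29.2 and 84.6 CPM, against 2979 and 4108 CPM in other nuclei.

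RNA of other glia was present in both kinds of member. Neuron-rich members had 562 CPM of oligodendrocyte genes in the mutant and 1315 CPM in the wt library, 1.93-fold and 3.46-fold the level of other nuclei. Their mutant to wt ratio was 0.427 (0.394 to 0.463), against 0.766 in other nuclei. Of these 12 genes, 7 were 2-fold lower in the mutant library, against 95 of 10314 (0.921%) of all genes tested in neuron-rich members. Astrocyte genes were 1.27-fold and 1.81-fold the level of other nuclei. In neuron-poor members oligodendrocyte genes were 28.9-fold and 6.45-fold the level of other nuclei in the mutant and wt library. Astrocyte genes were 7.78-fold and 6.98-fold, and vascular genes 7.60-fold and 33.0-fold. Of the genes that entered the count, 6 of 7, 2 of 4 and 1 of 1 were higher, against 11.8% of all genes. Scarce genes entered only where they were high in members, so these shares are no independent result. Over all genes, 11 of 12 oligodendrocyte and 9 of 12 astrocyte genes lay above other nuclei in both libraries and 0 below. Of 14 vascular genes 6 lay above and 5 below, and a single wt nucleus of 1784 UMIs had 168 vascular UMIs per 10000. RNA of other glia and vessels lay in some of the neuron-poor nuclei. A member counted as mixed when the genes of oligodendrocytes, their precursors, astrocytes (without Slc1a3), vessels or other blood cells made up at least 50 UMIs per 10000. In the mutant library 9 of 22 were mixed, 7 of them by oligodendrocyte genes. In the wt library 2 of 12 were mixed, 1 by oligodendrocyte and 1 by vascular genes. One mutant nucleus carried T cell genes, with 26 UMIs of Skap1, 22 of Themis and 7 of Cd247 among 3626 UMIs, and 1 UMI of homeostatic microglial genes; it met the rule through 4 markers, of which Apbb1ip had 7 UMIs. Leaving mixed nuclei out gave 13 mutant and 10 wt members, called unmixed below, with 29220 and 23337 UMIs. In them 193 of 775 genes (24.9%) were higher and 236 (30.5%) lower than in other nuclei, and oligodendrocyte genes stood at 376 and 386 CPM, against 291 and 380 CPM in other nuclei. Their astrocyte list stayed at 2259 and 2185 CPM, 5.78-fold (4.47 to 7.36) and 5.01-fold (3.73 to 6.59) the level of other nuclei. Most of its UMIs were of Slc1a3, which the limit for mixed nuclei did not count. The homeostatic list was then 145-fold and 132-fold higher.

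The dopamine RNA of the members came almost entirely from the neuron-rich ones. Th and Ddc, the enzymes of dopamine synthesis, with the plasma membrane transporter Slc6a3 and the vesicular transporter Slc18a2, summed to 970 CPM in mutant and 1766 CPM in wt members. Neuron-poor members had 58.4 and 113 CPM, from 6 and 4 UMIs, and 17 of 22 mutant and 8 of 12 wt nuclei had no UMI of the 4 genes. That was near the 50.5 and 132 CPM of astrocyte-rich nuclei with little neuronal RNA, which serve as a background. Slc6a3 had 0 UMIs in all neuron-poor members.

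Neuron-rich members carried dopamine RNA at levels near those of the other nuclei. The 4 genes stood at 1020 CPM in mutant and 1820 CPM in wt neuron-rich members, against 1104 and 2108 CPM in other nuclei. Per nucleus the medians were 9.96 (0 to 21.7) and 17.9 (0 to 31.0) UMIs per 10000, against 10.7 and 19.5 in other nuclei, and 1 mutant and 1 wt neuron-rich member had none. Among other nuclei 431 of 3894 mutant and 176 of 1734 wt nuclei had none. The make-up was also alike. Ddc was 57.6% of the 4-gene sum in mutant and 40.2% in wt neuron-rich members, against 58.0% and 41.0% in other nuclei of the same libraries, and Slc6a3 was 12.5% and 21.8%, against 13.8% and 19.8%. By the 4-fold rule 22 of 10562 genes (0.208%) were higher in neuron-rich members than in other nuclei and 0 (0%) lower, and all 22 were also higher in neuron-poor members.

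Between genotypes, Eed comes first as the targeted gene. It had 88 UMIs in 40 of 74 mutant members and 30 UMIs in 17 of 38 wt members, or 44.4 and 27.0 CPM, a ratio of 1.64 (1.08 to 2.58). In other nuclei it had 38.4 and 21.5 CPM. In neuron-poor members it had 8 UMIs in mutant and 1 UMI in wt nuclei. Tags near the end of a transcript do not check a deletion elsewhere in the gene, so this does not check the labels. The 12 PRC2 subunits together stood at a ratio of 1.13 (1.04 to 1.24) in members, as in other nuclei (1.13), and at 0.656 (0.361 to 1.18) in unmixed members from 23 and 28 UMIs.

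The larger microglial lists were near a ratio of 1 between the libraries in members and in unmixed members, while some lists of few molecules were not. The 9 rule markers summed to a mutant to wt ratio of 1.05 (0.97 to 1.14) in members and 0.954 (0.810 to 1.12) in unmixed members. The homeostatic list stood at 1.17 (1.09 to 1.27) in members and 1.13 (0.964 to 1.33) in unmixed members. Immune kinases and adaptors stood at 1.15 in members and 1.06 (0.941 to 1.19) in unmixed members, against 1.12 in other nuclei. A single wt nucleus weighed heavily on the unmixed and neuron-poor values. It held 109 of the 273 marker UMIs, 120 of 267 homeostatic UMIs and 191 of 489 kinase and adaptor UMIs of the unmixed wt members. The intervals do not cover such spread between nuclei. Complement and phagocytosis genes stood at 1.14 (0.987 to 1.31) and 1.16 in members and unmixed members. By single genes in members, 1 of 14 homeostatic genes, 0 of 28 kinases and adaptors, 0 of 11 transcription factors and 2 of 11 complement and phagocytosis genes were 2-fold higher in the mutant library, and 0 of them were 2-fold lower. Of all genes tested in members, 0.764% were 2-fold higher and 0.576% were 2-fold lower. The median log2 difference was 0.17 for the homeostatic list and 0.18 for kinases and adaptors, against 0.00 for all genes tested. Of all neuron-poor members, 9 of 22 mutant and 2 of 12 wt nuclei carried RNA of other glia, vessels or blood cells. In these 22 and 12 nuclei the lists stood lower than in members, except inflammatory cytokines at 4.15 (1.31 to 21.0) from 36 and 3 UMIs. The rule markers stood at 0.569 (0.492 to 0.658), the homeostatic list at 0.691, and kinases and adaptors at 0.760 (0.689 to 0.839). Of the latter, 4 of 22 genes were 2-fold lower, against 142 of 1709 (8.31%) of all genes tested in these nuclei. Transcription factors stood at 0.778 (0.657 to 0.925), and complement and phagocytosis genes at 0.661 (0.501 to 0.877). The direction of the marker, homeostatic, kinase, transcription factor and complement lists thus turned with the choice of nuclei. Oligodendrocyte genes in the same nuclei had 8414 CPM in the mutant and 2452 CPM in the wt library.

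**Figure D4:**
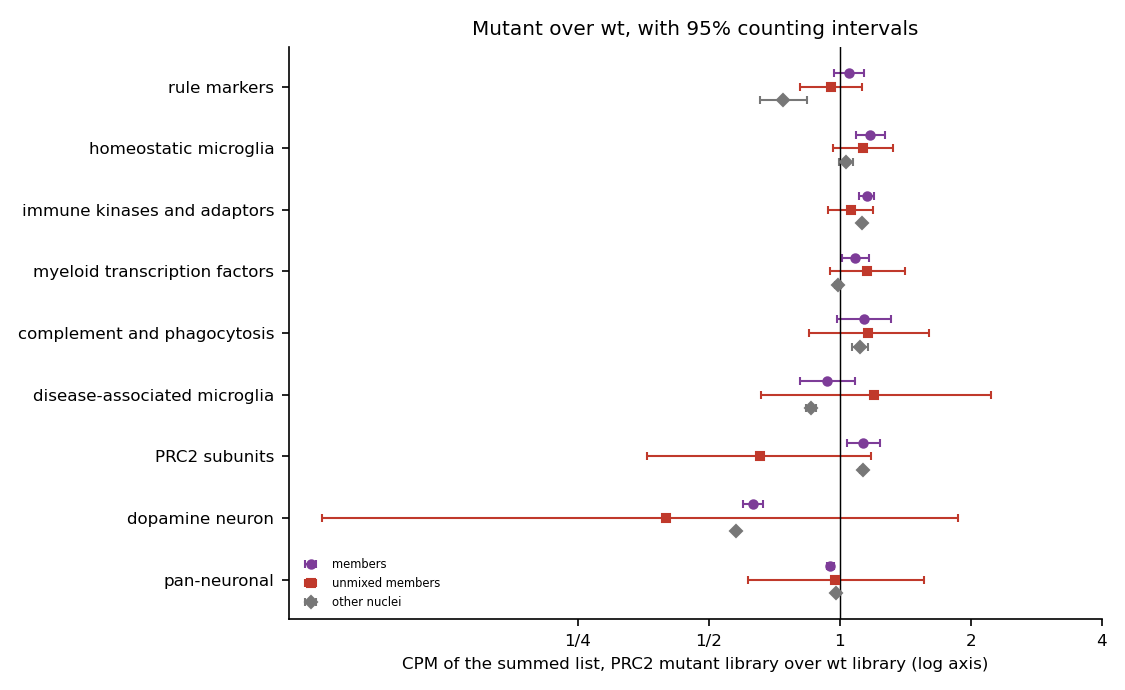
Points are the ratio of CPM of each summed gene list, PRC2 mutant over wt library, on a log axis, in all members, in unmixed members and in other nuclei, with bars for 95% counting intervals. The microglial lists shown lie near 1, with the rule markers at 1.05 in members and 0.954 in unmixed members, while the dopamine neuron list lies at 0.631 in members and 0.577 in other nuclei.

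Single genes differed more. With 10 CPM added, 81 of 10596 genes (0.764%) exceeded a 2-fold difference towards the mutant library in members and 61 (0.576%) towards the wt library, against 78 of 19032 (0.41%) and 24 (0.126%) in other nuclei. By the same count neuron-rich members had 83 (0.805%) and 95 (0.921%) of 10314 genes, neuron-poor members 279 (16.3%) and 142 (8.31%) of 1709, and unmixed members 45 (9.38%) and 13 (2.71%) of 480. Among microglial genes, 2 of the 3 subunits of complement C1q were called higher. C1qa, C1qb and C1qc form the first component of the classical complement pathway and lie side by side on the minus strand of chromosome 4, with C1qb at chr4:136880129-136886187 and C1qa at chr4:136895917-136898803.

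C1qa had 38 UMIs in 21 of 74 mutant members and 4 UMIs in 4 of 38 wt members, a ratio of 5.33 (1.92 to 20.5), and 4 UMIs in other nuclei of each library. C1qb had 65 UMIs in 32 mutant and 12 UMIs in 8 wt members, a ratio of 3.04 (1.63 to 6.18). C1qc had 27 and 5 UMIs, a ratio of 3.03 (1.15 to 10.1), and was not called. In neuron-rich members C1qb had 42 and 3 UMIs. In neuron-poor members C1qb had 23 and 9 UMIs, a ratio of 0.883, and in unmixed members 20 and 7 UMIs, a ratio of 2.28. These ratios lay on either side of 1 but rest on few UMIs, and whether its direction turned was not tested.

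Further microglial genes were set beside these. Cst3, a secreted protease inhibitor, was called higher, with 197 UMIs in 45 mutant and 49 UMIs in 26 wt members, a ratio of 2.25 (1.64 to 3.15), and of 4.91 (2.19 to 12.9) in unmixed members. Tmem119, a surface protein that marks microglia, had 32 UMIs in 21 mutant and 5 UMIs in 5 wt members, a ratio of 3.59 (1.39 to 11.8), but its CPM of 16.1 and 4.50 stayed under the limit with 10 CPM added. Ptprc, the common phosphatase of white blood cells (CD45), had 117 and 30 UMIs, a ratio of 2.19 (1.45 to 3.38), of which 13 UMIs were in the mutant nucleus with T cell genes. Spi1 stood at a ratio of 1.01 (0.569 to 1.84). C1qc, Tmem119 and Spi1 were named for comparison after their values had been seen.

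**Figure D5:**
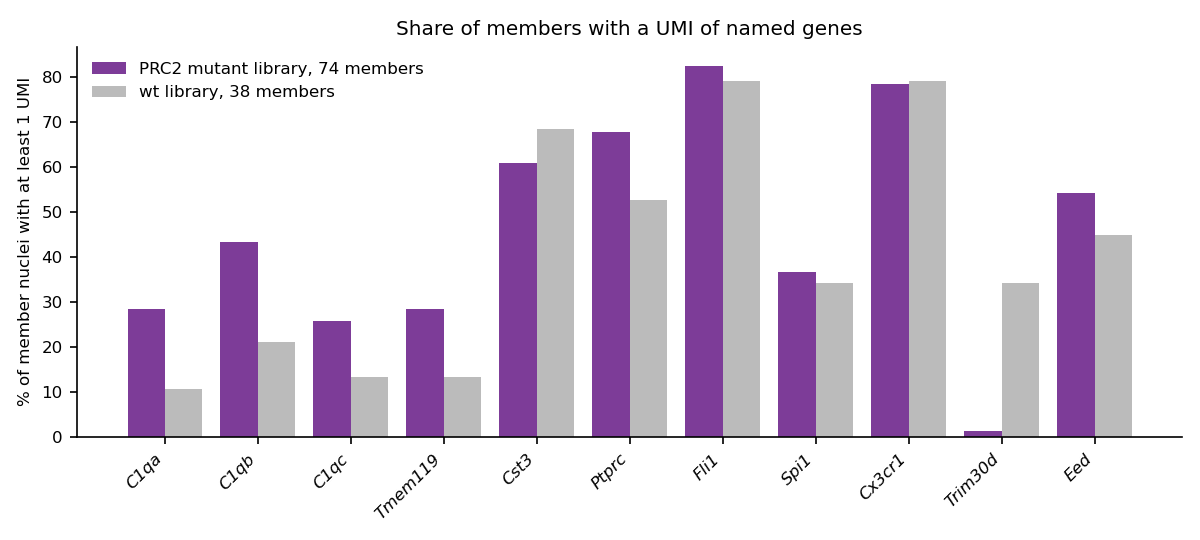
Bars give the percentage of member nuclei with at least 1 UMI of each gene in the PRC2 mutant library (left bar, 74 members) and wt library (right bar, 38 members). C1qa was found in 21 and 4 nuclei and Trim30d in 1 and 13 nuclei, while Cx3cr1 was found in most members of both libraries.

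The genes most above wt in mutant members included developmental regulators, whose RNA lay in neuron-rich members. Hoxc4, a homeobox factor that patterns the body axis, had 154 UMIs in 30 mutant members and 0 UMIs in wt members, a level at least 28.8-fold higher than 3 UMIs over all wt members would be. All 154 were in neuron-rich nuclei. Other nuclei had 8346 and 1 UMIs. The 10 highest also held Onecut2, 1700018A04Rik, Vax2os, Hoxc5, Pax3, Tbx15, Gata4, Gm12688 and Hoxd11, with 71 to 284 UMIs in mutant and 0 to 10 UMIs in wt members. Of these 10 genes, Onecut2 with 4 UMIs was the only one found in mutant neuron-poor members. The Hox genes together stood at 364 CPM in mutant neuron-rich members, against 433 CPM in other mutant nuclei, and 22 mutant neuron-poor members held 1 Hox UMI in all. Of 27 other embryonic regulators, such as Pax and Tbx factors, neuron-poor mutant members held 17 UMIs and the unmixed ones 1 UMI, against 3 and 0 UMIs in wt.

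Among the 10 lowest genes in mutant members were Sema5b, Itih3, Gm32647, Spag16, Dnah7a, Nxph1, Slc6a3, Trim30d and A830018L16Rik. Slc6a3 had 239 UMIs in mutant and 428 UMIs in wt members, a ratio of 0.313 (0.266 to 0.368), all in neuron-rich nuclei. Sema5b, an axon guidance semaphorin, had 55 and 153 UMIs, and Nxph1, a ligand of neurexins, had 363 and 649 UMIs. The 14-gene dopamine neuron list stood at 0.631 (0.599 to 0.665) in members, against 0.577 in other nuclei.

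Trim30d had wt molecules in both kinds of member. It encodes a tripartite motif protein of an immune gene family and had 1 UMI in 1 of 74 mutant members and 21 UMIs in 13 of 38 wt members, a ratio of 0.0267 (0.000645 to 0.166). Neuron-poor members held 0 and 11 UMIs and neuron-rich members 1 and 10 UMIs, while the other genes of the 10 lowest had 0 to 2 UMIs in wt neuron-poor members. In other nuclei it had 107 and 68 UMIs, a ratio of 0.829 (0.606 to 1.14). It lies at chr7:104470014-104507849, among close relatives whose reads may not be separable, on the same chromosome as Eed at chr7:89954654-89980983. Its neighbour Trim12a had 1 and 11 UMIs in mutant and wt members and 37 and 78 UMIs in other nuclei, and Trim30a had 26 and 33 UMIs in members. Trim5 had 0 and 6 UMIs and Trim34a had 2 and 2 UMIs in members, while Trim12c with 8 and 2, Trim30c with 4 and 0 and Trim34b with 2 and 0 UMIs had more in the mutant library. These relatives were looked up after the value of Trim30d had been seen.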

How the data were processed

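The libraries were 10x Chromium Single Cell 3' v3, made from FACS-sorted midbrain nuclei, per the labels' protocols. Cell Ranger 3.1.0 and mm10 are listed, with no role, in the submitters' processing notes. The authors deposited raw UMI counts for 23481 genes and 5740 nuclei, which are not normalised; counts were assigned to a library by the start of each column name. Filters applied before deposit were not given in the sources used here. All nuclei were kept.

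Counts were summed over nuclei per library and divided by their total to give CPM. Log2 ratios carry a pseudocount of 10 CPM. A gene was counted as different between members and other nuclei at 4-fold in both libraries, and between libraries at 2-fold, given at least 20 UMIs over both libraries; against other nuclei, 20 UMIs expected in members at the level of other nuclei also sufficed. Folds of named genes and lists carry no pseudocount and have exact 95% intervals from the binomial split. A count of 0 was bounded by 3 UMIs. Depth was 796 to 88268 UMIs per member. Positions are those of GENCODE M21 on mm10. Promoters came from the RefSeq table. Tools were matplotlib 3.10.9, pandas 2.3.3, scipy 1.17.1 and numpy 2.4.6 under Python 3.11.15.

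The members, the gene lists and the rules were chosen with earlier results of these data known. The genes named were the 9 markers, members of lists, the 20 highest genes over other nuclei and the 10 highest and 10 lowest between libraries; some of these are not reported here. Splits by neuronal RNA and by other cell types were set after the data had been seen. Alternatives changed the marker rule, thinning, depth, dopamine RNA, the pseudocount, the minimum count and the averaging.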

Additional observations from a re-analysis of the deposited data

How the results depend on the processing

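No paired analysis was possible because each genotype had 1 library and lanes are not kept apart in the deposited table, and for the same reason no replicate could be left out. The cause of each change below was not tested. Of 95 values that answer a comparison 46 moved by less than their limit, and 499 gene values did, with 41 that moved further and 12 that turned. List ratios held least well, with 109 that moved by less than their limit, 77 that moved further and 28 that turned. A marker sum of at least 10 per 10000 kept 41 mutant and 19 wt members with median depths of 6908 and 3148 UMIs, and thinning to 2000 UMIs before the rule kept 26 and 13.

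The summed dopamine neuron list stood at 1294 CPM in mutant members with a sum of at least 5, at 1112 and 1136 CPM in mutant and wt members with a sum of at least 10, at 923 and 1312 CPM in members under the median depth, and at 117 and 298 CPM in those with little dopamine RNA. It stood at 273 and 310 CPM in neuron-poor and 103 and 257 CPM in unmixed members, splits chosen after seeing the data.

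Genes higher in members than in other nuclei numbered 73 at a sum of at least 5, 171 at 10, 232 in shallow members, 223 with little dopamine RNA, 262 in neuron-poor, 193 in unmixed members, 81 and 12 with pseudocounts of 5 and 20 CPM, and 181 from means of per-nucleus CPM. Genes lower, 0 in all members, numbered 1 in shallow members, 47 with little dopamine RNA, 283 in neuron-poor and 236 in unmixed members. Genes higher in the mutant library numbered 135 and 365 at sums of 5 and 10, 198 in shallow members, 201 with little dopamine RNA, 279 in neuron-poor, 45 in unmixed members, 139 and 30 with pseudocounts of 5 and 20 CPM, 42 at 50 UMIs and 326 from per-nucleus means. Genes lower numbered 120 and 283, 141, 205, 142, 13, 117 and 26, with 442 from per-nucleus means, in the same order.

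List ratios of mutant over wt that turned were, at a sum of at least 10, homeostatic 0.688, transcription factors 0.774, kinases 0.708, pan-neuronal 1.20 and PRC2 0.924. In neuron-poor members they were 0.691, 0.778, 0.760, 1.32 and 0.95, with oligodendrocyte 3.43. From per-nucleus means they were 0.895, 0.914, 0.929, 1.03 and 0.992, with oligodendrocyte 1.17 and astrocyte 1.05. In unmixed members border macrophage stood at 1.71, astrocyte at 1.03 and PRC2 at 0.656. In shallow members GABAergic stood at 0.900, oligodendrocyte at 1.77 and astrocyte at 1.14. With little dopamine RNA GABAergic stood at 0.447 and oligodendrocyte at 1.23, and with at least 4 or 5 markers the vascular list stood at 1.35 and 1.35.

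Log2 ratios of genes that turned were Itih3 0.73 and Spag16 0.69 at a sum of at least 10, Spag16 0.55 in shallow members, and 1700018A04Rik -0.66 and Spag16 1.97 with little dopamine RNA. In neuron-poor members they were 1700018A04Rik -1.93, Sema5b 0.98, Itih3 0.36, Spag16 0.044, Nxph1 3.77 and C1qb -0.17, and in unmixed members Spag16 1.17. Neuron-poor members held 102686 mutant and 35481 wt UMIs, so values there rest on few molecules.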
